A study of Mus musculus with 18 samples.

Results

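Of the 8-base sequences on a protein binding microarray, those written without cytosine take no modified base when one DNA strand is built from modified cytosine. They were set apart here as the 8-mers with no C and at least 1 G in the strand on which the modified base was placed. Of the 65530 8-mers deposited, 6302 met this, and the 6298 that lay on 10 or more probes were kept, out of 65121 8-mers tested. They held 1 guanine in 1022 cases, 2 in 1788, 3 in 1791 and 4 or more in 1697. The 4 left out lay on 9 probes each. The rule itself uses letters and probe counts and no binding value, but it was set with earlier results of these data known.

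The proteins were GST-tagged DNA-binding domains of mouse CREB1, ATF1 and JUND with 15 flanking residues, made in a cell-free transcription and translation reaction. They are fragments and not full-length proteins. Primer extension copied the printed probe strand with 5-methylcytosine (5mC), 5-hydroxymethylcytosine (5hmC) or plain cytosine (C), so the copied strand alone carried the modification. Each protein was read on 2 arrays of each kind of DNA, 18 arrays in 9 groups: CREB1 on 5mC, 5hmC and C, ATF1 on the same 3, and JUND on the same 3. Whether the paired arrays used separate protein batches is not stated in the labels, and p-values therefore rest on array-to-array spread that may be technical alone.

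CREB1 and ATF1 are basic leucine zipper (bZIP) proteins, which dimerize through a leucine zipper and read DNA in the major groove with a basic region. Both bind the cAMP response element, a palindrome in which each strand reads TGACG, while JUND belongs to the AP-1 family that binds TGACTCA. Thymine carries the same methyl group as 5mC at the same ring position, and TGATG is the element's TGACG with T in place of its cytosine. A cytosine-free 8-mer meets the protein with plain cytosine on its partner strand, opposite each guanine, in all 3 kinds of DNA. The bases around it on the probe do change, since the copied strand holds modified cytosines outside the 8-mer.

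The sequences below show this arrangement for the leading members by mean z-score, GTGATGTA for CREB1 with 5hmC, TGATGATG for CREB1 with C and ATGAGTAA for JUND with C. Each line gives the 35 variable bases of the copied strand of a probe without a known bZIP motif, 5′ to 3′, in lower case with the member in capitals. Every lower-case c is a base that was modified on the 5mC and 5hmC arrays.
GTGATGTA, first probe: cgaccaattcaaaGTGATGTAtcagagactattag
GTGATGTA, second probe: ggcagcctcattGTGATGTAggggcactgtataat
TGATGATG, first probe: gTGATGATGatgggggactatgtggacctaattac
TGATGATG, second probe: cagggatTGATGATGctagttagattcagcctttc
ATGAGTAA, first probe: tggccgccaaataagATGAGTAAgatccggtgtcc
ATGAGTAA, second probe: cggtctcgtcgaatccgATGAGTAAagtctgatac
The GTGATGTA probes held 6 cytosines each, the TGATGATG probes 4 and 6, and the ATGAGTAA probes 8 each. On the second GTGATGTA probe the CREB1 signal was 2.79 and 1.57 times the array's median signal on the 5mC arrays, 4.20 and 4.71 times on the 5hmC arrays and 2.72 and 2.95 times on the C arrays. The first GTGATGTA probe read 1.65 and 1.54 times with 5mC, 2.93 and 2.85 times with 5hmC and 5.37 and 3.07 times with C, so that the probes of 1 member differed in which DNA gave the brighter signal. A value for an 8-mer therefore summarises several probes.

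A member had a median of 18 probes (10 to 40), against 17 for all 8-mers tested, and 11 of them held none of 5 letter strings taken as known bZIP motifs on either strand. These were TGAC and its reverse complement GTCA, the palindrome ACGT, and GCAA and its reverse complement TTGC, which can overlap one another. Of all 40330 probes 21320 (52.9%) held none of these. The variable bases of a member's probes held a mean of 6.64 cytosines, against 8.49 for all 8-mers and 9.15 for the members' reverse complements, so members sat on probes with fewer modified bases. The median signal of an array ran from 519 to 8014, both on JUND arrays, signal over background from 1.55 to 14.0, and 0 to 84 probes per array were saturated. Over the members the z-scores of a group's arrays correlated with Pearson r of 0.662, 0.804 and 0.792 for CREB1 on 5mC, 5hmC and C, and 0.805, 0.607 and 0.761 for ATF1. For JUND they were 0.732, 0.262 and 0.481, so the JUND arrays with 5hmC and with C stood apart from each other, and results that rest on them are given with and without each array. Members overlap in sequence and share probes, and these r describe the arrays.

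As a class, cytosine-free 8-mers sat near the middle of each array, and on every array but the second JUND array with 5hmC those with 4 or more guanines had the lowest median z-score. With 1, 2, 3 and 4 or more guanines the median z-score of CREB1 on 5hmC DNA was 0.737 ± 0.181, 0.618 ± 0.0822, 0.390 ± 0.0977 and -0.150 ± 0.0630 (mean ± SD of 2 arrays, as in all such values here). On C DNA the same classes read 0.168 ± 0.134, 0.0708 ± 0.0834, 0.0163 ± 0.0781 and -0.346 ± 0.0605. On 5mC DNA they read -0.0340 ± 0.399, -0.0139 ± 0.234, -0.0714 ± 0.113 and -0.456 ± 0.0306, where the first 3 classes did not differ beyond the spread of the arrays. ATF1 showed 0.105 ± 0.0109, 0.113 ± 0.0361, 0.0449 ± 0.00105 and -0.397 ± 0.00332 on 5mC DNA. It showed 1.07 ± 0.0283, 0.850 ± 0.0132, 0.580 ± 0.0529 and 0.0243 ± 0.0222 on 5hmC DNA, against 0.418 ± 0.0586, 0.342 ± 0.0533, 0.182 ± 0.0314 and -0.306 ± 0.0745 on C DNA. JUND on 5mC DNA had 0.115 ± 0.330, 0.0696 ± 0.294, 0.0104 ± 0.297 and -0.337 ± 0.248, and on 5hmC DNA 0.627 ± 0.608, 0.522 ± 0.285, 0.351 ± 0.109 and 0.0739 ± 0.237. On C DNA it had 0.578 ± 0.0243, 0.535 ± 0.135, 0.511 ± 0.244 and 0.155 ± 0.375, where the first 3 classes did not differ beyond the spread of the arrays. On 5mC DNA all members together had a median of -0.160 ± 0.155 with CREB1, -0.0415 ± 0.0189 with ATF1 and -0.0445 ± 0.292 with JUND.

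Members with a z-score of at least 4 on an array were counted as bound there. On the arrays of CREB1 40 and 20 members were bound with 5mC, 173 and 151 with 5hmC and 50 and 87 with C, where 2.53 and 1.96%, 1.72 and 1.8% and 4.25 and 5.99% of all 8-mers tested were bound. The 5hmC arrays of CREB1 thus had more bound members than any C array while fewer of all 8-mers were bound there. The members' own shares were 2.75% and 2.40% on 5hmC and 0.794% and 1.38% on C, so that bound members were a smaller share than bound 8-mers on C and a larger one on 5hmC. Their reverse complements, which carry the modified cytosines themselves, were bound in 16 and 12 cases with 5mC, 20 and 19 with 5hmC and 61 and 89 with C.

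ATF1 bound 12 and 9 members with 5mC, 54 and 44 with 5hmC and 50 and 48 with C, against 1.16 and 1.28%, 0.564 and 0.462% and 2.96 and 3% of all 8-mers. The 5hmC and C arrays of ATF1 overlapped in this count, and its 5mC arrays lay below both. JUND bound 40 and 87 members with 5mC, 31 and 60 with 5hmC and 88 and 8 with C, against 0.978 and 0.981%, 0.564 and 1.25% and 1.59 and 0.375% of all 8-mers, and all 3 groups of JUND arrays overlapped.

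Among all cytosine-free 5-mers, TGATG marked the members with the highest mean z-score of CREB1 and of ATF1 in all 3 kinds of DNA, followed each time by ATGAT. The 107 members with TGATG averaged 1.99 ± 0.261 for CREB1 on 5mC, 5.87 ± 1.72 on 5hmC and 3.40 ± 0.713 on C. Their reverse complements, which hold CATCA and so carry modified cytosine on the copied strand, averaged 0.189 ± 0.257 with 5mC, 0.0136 ± 0.0416 with 5hmC and 2.82 ± 0.758 with C. Without modification both orientations were thus well above 0, and with either modification the reverse complements averaged near 0 while the members did not. Of the TGATG members 17 had a mean of 4 or more on 5mC, 58 on 5hmC and 39 on C, while of 106 reverse complements 0, 0 and 25 did.

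Since TGATG ranked highest of all cytosine-free 5-mers, any other base at a position had to go with a lower level. That the variants were lower is thus no result, and their levels are given as a description. On 5hmC DNA the mean CREB1 z-score was 5.87 over members with TGATG, against 0.759 with AGATG and 0.455 with GGATG. At the second position TAATG gave 1.86 and TTATG 1.71, and at the third TGGTG gave 0.928 and TGTTG 1.02. TGAAG and TGAGG, changed at the base that is C in the response element, read 0.200 and 0.364, lower than any of the others. TGATA and TGATT at the last position read 1.27 and 1.17. The members behind each of these means number 106 to 108, and members that hold a 5-mer share probes.

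The base before TGATG separated its members. On 5hmC DNA the 27 members with A before it averaged 9.28 for CREB1 and the 27 with G before it 8.41, while the 27 with T before it averaged 1.46. The same order held for CREB1 on C DNA, at 5.59, 4.51 and 1.01, and for ATF1 on 5hmC DNA, at 4.53, 3.66 and 1.22. A purine before TGATG thus went with the higher levels in all 3 of these groups. After TGATG, T went with 8.34, A with 6.26 and G with 2.69 for CREB1 on 5hmC, again a description of overlapping members without a test.

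The members named next are printed with their guanines in capitals, the positions opposite plain cytosine, beside their reverse complements with the cytosines in capitals, the positions that carried the modified base.
GTGATGTA: GtGatGta
its reverse complement TACATCAC: taCatCaC
TGATGTAA: tGatGtaa
its reverse complement TTACATCA: ttaCatCa
ATGATGAT: atGatGat
its reverse complement ATCATCAT: atCatCat
GTGTAATT: GtGtaatt
its reverse complement AATTACAC: aattaCaC

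With 5hmC, CREB1 gained z-score at cytosine-free 8-mers, although none of these 8-mers holds the modified base. In limma's fit over all 65121 8-mers 163 members rose and 17 fell relative to C DNA (Benjamini-Hochberg adjusted p under 0.05), while 1.12% of all 8-mers rose and 6.78% fell. The members' shares were 2.59% higher and 0.270% lower. Their median change was 0.373 and 70.8% changed upward, against -0.0616 and 46.9% of all 8-mers. By guanine count 27 of 1022 members with 1 rose, 83 of 1788 with 2, 37 of 1791 with 3 and 16 of 1697 with 4 or more, and the median changes were 0.572, 0.530, 0.361 and 0.159. The 254 8-mers of A and T alone, which have no cytosine on either strand, had a median change of 0.689, with 2 higher and 0 lower.

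The 5 rises of CREB1 with 5hmC named here are the largest among members that passed the test without overlap between the arrays. The lack of overlap was thus required by the choice. ATGATGAT read 15.2 and 22.1 on the 5hmC arrays, against 7.29 and 9.09 on the C arrays (change 10.4 ± 2.37, standard error after ±, adjusted p = 0.00646). GTGTAATT, which holds no TGATG, read 10.6 and 10.9 with 5hmC, against 2.19 and 2.45 with C (change 8.43 ± 1.06, adjusted p = 1.30e-05). Its arrays agreed closely within each group, 3 of its probe readings over the 18 arrays were saturated, and its change in log2 score was 3.04 (adjusted p = 0.00146). TATGATGA read 12.9 and 16.1 with 5hmC, against 7.31 and 6.71 with C (adjusted p = 0.0380). TGTGATGT read 10.1 and 13.5 with 5hmC, against 5.32 and 4.49 with C (adjusted p = 0.000452), and TAGTGATG 13.1 and 15.7 with 5hmC, against 6.20 and 9.23 with C (adjusted p = 0.0102). Of these 5, 4 hold TGATG. The highest CREB1 value of any member on 5hmC DNA belonged to GTGATGTA, at 11.7 and 30.2, against 8.63 and 12.7 on C DNA, and its change of 10.3 ± 3.61 did not pass the test (adjusted p = 0.0953) and 1 of its 5hmC arrays lay below a C array.

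The groups of members by shared letters showed where the rises lay. Of 107 members with TGATG 19 rose and 0 fell, with a median change of 1.90 and 96 upward. Of 404 with GTAA, the cytosine-free form of GCAA, which C/EBP proteins bind, 57 rose and 2 fell, with a median of 1.10. Of 404 with ATGT, the ACGT of the response element with T for C, 29 rose and 0 fell, with a median of 0.895. These groups overlap, as in TGATGTAA. Members with TAAT, a homeodomain core, numbered 323, of which 29 rose (median 0.904), and of 108 with TGAGT, the start of the AP-1 site TGAGTCA, 4 rose (median 0.931). By contrast 0 of 297 members with GGGG rose and 1 fell (median 0.0567), 0 of 404 with GGAA, the ETS core, rose and 3 fell (median 0.119), and 0 of 108 with GATAA, the GATA site, changed (median 0.390). Of 3618 members in none of the 11 groups 52 rose and 8 fell (median 0.332).

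Ends that could join a flanking cytosine into a known motif were taken as groups too. Of 243 members ending in TGA, which a following C turns into TGAC, 3 rose and 1 fell. Of 485 starting with GTA or GTG, which a preceding C turns into CGTA or CGTG, 10 rose and 5 fell. Of 485 ending in TTG or ATG, which a following C turns into TTGC or ATGC, 21 rose and 0 fell. When scores were recomputed on the log2 scale from probes without the 5 motifs above, 3 members rose and 0 fell. On that scale the TGATG members still had a median change of 0.950 in log2 score units, with 94 of 107 upward and 0 passing the test. A log2 score is the median log2 signal of a member's probes, centred and scaled on each array. The number changed was 84 on the log2 scale with all probes and 98 with quantile normalization. It was 87 without 5hmC replicate 1, 63 without C replicate 1 and 70 without C replicate 2.

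The 17 members that fell with 5hmC included none with TGATG. GTGAGGAA read 2.24 and 2.83 on 5hmC arrays, against 6.87 and 9.12 on C arrays (change -5.46 ± 0.969, adjusted p = 0.000654). GTAAGTTT changed by -4.51 ± 0.945 (adjusted p = 0.00322), TGGAATGA by -3.62 ± 0.833 (adjusted p = 0.00711), TTGTGAGA by -3.55 ± 0.824 (adjusted p = 0.00758) and TGGTGTGT by -3.24 ± 0.956 (adjusted p = 0.0403). Of their probes 6 of 17, 8 of 17, 4 of 10, 4 of 16 and 6 of 12 held none of the bZIP motifs. Without the motif probes the log2 change of GTGAGGAA was 0.859, that of GTAAGTTT 0.444 and that of TGGAATGA 1.479, all upward. GTGAGGAA was also upward on the log2 scale with all its probes (0.501), and 5 of its probe readings were saturated.

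With 5mC, CREB1 lost z-score at some cytosine-free 8-mers and gained almost none. The test called 3 members higher and 50 lower than on C DNA, against 2.25% of all 8-mers higher and 6.21% lower, so 0.794% of members fell. The median change was -0.156 over members and -0.0631 over all 8-mers. TGATG members had a median change of -1.11, with 14 of 107 upward, 0 higher and 2 lower by the test. The largest falls were at TGATGATG, with 4.28 and 4.30 on 5mC arrays, against 9.52 and 17.5 on C arrays (change -9.21 ± 2.31, adjusted p = 0.0127). GTGAGGAA read 1.03 and 0.987 with 5mC, against 6.87 and 9.12 with C (adjusted p = 4.17e-05). None of these arrays overlapped, as the choice of named members required. On the log2 scale with all probes the CREB1 fall at GTGAGGAA was small. There ATF1 changed by -0.089 with 5mC, and the CREB1 change differed from that of ATF1 by -0.135. GTTATGAT changed by -6.26 ± 1.43 (adjusted p = 0.00626), GGTTATGA by -5.93 ± 0.957 (adjusted p = 0.000228) and GTGATGAT by -5.48 ± 1.40 (adjusted p = 0.0145). The comparisons of 5mC and of 5hmC with C share the C arrays.

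The 3 rises of CREB1 with 5mC were at low levels. GGTTGAGG read -0.0141 and 0.593 on 5mC arrays, against -1.88 and -1.02 on C arrays (change 1.74 ± 0.440, adjusted p = 0.0137). GAGATGTG read 0.341 and 1.32 with 5mC, against -1.30 and -0.542 with C (adjusted p = 0.0446), and TGGTAAAT 1.53 and 2.63 with 5mC, against 0.325 and -0.646 with C (adjusted p = 0.0398). No array of these 3 reached the bound level of 4. Of 485 members starting with GTA or GTG 16 fell, and of 243 ending in TGA 6 fell. Quantile normalization left 3 members changed, of which 66.7% were lower, against 94.3% before it, and the log2 scores 25, of which 80.0% were lower. The probes without bZIP motifs left 0. The count was 32 without 5mC replicate 1, 16 without 5mC replicate 2, 35 without C replicate 1 and 20 without C replicate 2.

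Set directly against each other, the modifications differed at cytosine-free 8-mers for CREB1 in 1 direction. The test called 67 members higher with 5hmC than with 5mC and 0 lower, where 0.186% of all 8-mers were higher and 0.766% lower. The median difference was 0.534 over members, with 78.0% upward, and -0.0261 over all 8-mers. Of the 67, 30 held TGATG (of 107 members with it, median difference 2.86), 19 held ATGT, 19 held GTAA, 13 held TAAT and 1 held TGAGT, and 11 were in no group. The largest differences were at GTGATGTA, with 11.7 and 30.2 on 5hmC arrays, against 5.27 and 4.42 on 5mC arrays (difference 16.1 ± 3.61, adjusted p = 0.0344), AGTGATGT (12.8 and 26.4 with 5hmC, against 6.50 and 4.95 with 5mC, adjusted p = 0.0367) and ATGATGAT (15.2 and 22.1 with 5hmC, against 4.84 and 4.55 with 5mC, adjusted p = 0.00453). The lowest 5hmC value of each lay above both 5mC values, as the choice of named members required. The count was 0 without motif probes (1 of 58348 8-mers of any kind) and 6 on the log2 scale (138 of 65121). It was 14 when the fit held CREB1 arrays alone (289 of 65121) and 105 without the variance trend (674 of 65121). It was 42 and 29 without 5hmC replicate 1 or 2 and 35 and 11 without 5mC replicate 1 or 2.

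A member and its reverse complement on the copied strand make the same 8 base pairs. On 5mC and 5hmC DNA those of the member hold no modified base, while those of the reverse complement hold it at each copied cytosine. The member and its reverse complement are read from different probes, whose flanking bases and cytosine counts differ. The difference between the z-scores of a member and its reverse complement was tested as its own measure, over 32225 pairs, of which 6166 hold a member. For CREB1 with 5hmC this strand difference rose in 210 members and fell in 14 relative to C DNA, against 2.99% and 1.3% of all pairs, each pair written from the orientation with fewer cytosines. Of 106 pairs with TGATG 62 rose and 0 fell, with a median change of 4.08 and most changes upward. Of 401 pairs with GTAA 52 rose and 2 fell, of 403 with ATGT 45 rose, and of 322 with TAAT 31 rose. The share by guanine count was 2.06%, 3.92%, 4.36% and 2.62% higher with 1, 2, 3 and 4 or more.

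At TGATGTAA the CREB1 z-score was 6.85 and 2.63 on 5mC arrays, 10.9 and 23.8 on 5hmC arrays and 5.10 and 11.0 on C arrays. Its reverse complement TTACATCA read 0.280 and 0.122 with 5mC, -0.0440 and -0.737 with 5hmC and 9.49 and 13.2 with C. The orientations were alike on C DNA, and with 5hmC the cytosine-free one stood far above 0 while the other was near 0 (change of the strand difference 21.0 ± 2.78, adjusted p = 0.000193). GTGATGTA showed 5.27 and 4.42 with 5mC, 11.7 and 30.2 with 5hmC and 8.63 and 12.7 with C, and its reverse complement TACATCAC -0.239 and -0.232 with 5mC, 0.270 and 0.314 with 5hmC and 6.08 and 13.7 with C (strand change with 5hmC 19.9 ± 3.55, adjusted p = 0.00291). As a multiple of the array's median signal GTGATGTA was at 2.52 and 1.78 with 5mC, 4.20 and 4.71 with 5hmC and 3.21 and 4.04 with C, and TACATCAC at 0.898 and 0.933 with 5mC, 1.07 and 1.04 with 5hmC and 2.88 and 3.54 with C. On that scale too the modified orientation read near the array's median with both modifications and the cytosine-free one did not.

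With 5mC the strand difference of CREB1 rose in 51 members and fell in 41, against 2.22% and 2.82% of all pairs, with a median change of -0.0528. TGATG pairs had 6 higher and 0 lower (median 1.03), GTAA pairs 19 higher and 2 lower, and ATGT pairs 15 higher and 0 lower. TGATGTGG was among them: the member read 1.82 and 0.982 on 5mC arrays, against 0.671 and 1.09 on C arrays, and its reverse complement CCACATCA 0.586 and 2.66 with 5mC, against 8.65 and 10.7 with C (strand change 8.56 ± 1.00, adjusted p = 5.45e-05). Here the member stayed low in both, and the reverse complement was the side that differed. Between the modifications the strand difference of CREB1 was higher with 5hmC than with 5mC in 74 members and lower in 2, against 1.23% and 0.242% of all pairs, and 36 of the 74 held TGATG.

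The largest strand changes by size were at GGGG members and rested on reverse complements with 1 or 2 probes. GAGGGGAT, TTGAGGGG, TGAGGGGA, AATGGGGT and TGGGGATG lay on 31 to 34 probes each, but their reverse complements lay on 1, 2, 2, 1 and 1. GAGGGGAT read -0.563 and -0.706 on 5hmC arrays of CREB1, against -0.268 and -0.614 on C arrays, while its reverse complement read -2.35 and -2.80 with 5hmC, against 45.8 and 42.6 with C (strand change 46.6 ± 2.86, adjusted p = 6.84e-08). The member itself was near 0 in both, and its reverse complement is read from 1 probe. With only 8-mers on 10 or more probes in the fit the CREB1 counts of changed strand differences were 104 with 5mC and 232 with 5hmC, where these pairs are left out. The strand count of CREB1 with 5hmC was 98 on the log2 scale, 6 without motif probes and 99 after quantile normalization. It was 123 and 132 without 5hmC replicate 1 or 2 and 136 and 103 without C replicate 1 or 2. With 5mC it was 17 on the log2 scale, with 58.8% lower against 44.6% on the deposited scale, and 9 after quantile normalization, and 44 and 51 without 5mC replicate 1 or 2 and 61 and 32 without C replicate 1 or 2.

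Members can be read as sites in which thymine stands where another site has cytosine. The lines pair 5 of the best CREB1 sites with a single cytosine with their thymine forms, the 4 bases around that position in capitals. The first pairs come from the sites with ACGT that CREB1 bound most on C DNA, the others from those with GCAA that it bound most on 5mC DNA.
TGACGTAA with cytosine: tgACGTaa
TGATGTAA with thymine: tgATGTaa
AGTGACGT with cytosine: agtgACGT
AGTGATGT with thymine: agtgATGT
TGATGCAA with cytosine: tgatGCAA
TGATGTAA with thymine: tgatGTAA
TTATGCAA with cytosine: ttatGCAA
TTATGTAA with thymine: ttatGTAA
TTGCAATA with cytosine: ttGCAAta
TTGTAATA with thymine: ttGTAAta

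The response element pairs were chosen by the level of the cytosine form on C DNA, so that its height there, its gap to the thymine form and its change against C follow in part from the choice and are given as a description. TGATGTAA averaged 4.74 ± 2.98 on 5mC, 17.3 ± 9.16 on 5hmC and 8.03 ± 4.14 on C for CREB1, while TGACGTAA averaged 33.4 ± 22.1 on 5mC, 47.1 ± 12.7 on 5hmC and 149.9 ± 5.69 on C. TGATGTAA passed the test for neither modification against C (adjusted p = 0.639 and 0.0563) but was higher with 5hmC than with 5mC (adjusted p = 0.0416). AGTGATGT averaged 5.73 ± 1.10 on 5mC, 19.6 ± 9.60 on 5hmC and 10.8 ± 1.80 on C, while AGTGACGT averaged 11.4 ± 1.81 on 5mC, 21.9 ± 11.5 on 5hmC and 128 ± 7.20 on C. On 5hmC DNA the 2 forms of this site thus came within each other's spread. The other 3 members of this kind, ATGATGTA, GATGATGT and TATGATGT, averaged 15.9, 15.1 and 14.5 on 5hmC, and their cytosine forms 30.4, 27.0 and 29.4. The direct difference between the forms was not tested.

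At GCAA the thymine forms were above the cytosine forms on C DNA in 4 of 5 pairs and below them with modification. TTATGTAA averaged 1.97 ± 0.850 on 5mC, 9.05 ± 0.175 on 5hmC and 5.47 ± 0.547 on C, while TTATGCAA averaged 30.5 ± 9.55 on 5mC, 42.3 ± 25.0 on 5hmC and 2.41 ± 1.03 on C. TTGTAATA averaged 3.61 ± 0.0941 on 5mC, 8.48 ± 1.14 on 5hmC and 4.34 ± 0.0821 on C, while TTGCAATA averaged 21.3 ± 15.7 on 5mC, 24.8 ± 1.67 on 5hmC and -0.0519 ± 0.186 on C. GATGTAAT and TATGTAAT averaged 3.29 and 2.49 on C DNA, while GATGCAAT and TATGCAAT averaged 1.78 and -0.423. The exception was TGATGTAA, at 8.03 ± 4.14 on C DNA, against 12.1 ± 4.69 at TGATGCAA. These pairs were chosen by the level of the cytosine form on 5mC DNA, so that its height there is no result.

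ATF1 had the same leading 5-mer as CREB1 and smaller values. Its 107 TGATG members averaged 1.34 ± 0.0331 on 5mC, 2.90 ± 0.112 on 5hmC and 2.73 ± 0.0284 on C, and the reverse complements 0.501 ± 0.00880 with 5mC, 0.0547 ± 0.0302 with 5hmC and 2.03 ± 0.122 with C. TATGATGA, the highest member of ATF1 on 5hmC and on C, read 4.90 and 3.98 on 5mC arrays, 9.65 and 8.91 on 5hmC arrays and 8.79 and 7.50 on C arrays. ATGATGAT read 3.17 and 4.42 with 5mC, 8.61 and 9.01 with 5hmC and 6.59 and 8.06 with C. In both the 5mC arrays lay below all others and the 5hmC arrays above the C arrays, by a difference that did not pass the test (adjusted p = 0.882 and 0.851 against C). AATGATGA, at 1.98 and 2.93 with 5mC, 3.86 and 5.86 with 5hmC and 7.95 and 8.28 with C, was highest on C instead, also without passing it (adjusted p = 0.406 with 5hmC).

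For ATF1 8 members rose and 45 fell with 5mC, against 1.19% and 2.06% of all 8-mers, with a median change of -0.198. TGATG members had a median change of -1.11, with 3 lower and 0 higher, among them TTATGATG at 1.502 and 1.21 on 5mC arrays, against 6.83 and 6.09 on C arrays (adjusted p = 0.0477). ATGATAAA read 0.449 and 0.730 with 5mC and 0.182 and 0.880 with 5hmC, against 8.31 and 5.12 with C (adjusted p = 0.00369 and 0.00319). GTGAGGAA, which also fell for CREB1, read 1.06 and 1.08 with 5mC and 0.689 and 0.704 with 5hmC, against 5.30 and 6.51 with C (adjusted p = 0.0101 and 0.00724). In log2 scores without motif probes both changed upward, ATGATAAA by 0.879 with 5mC and 0.445 with 5hmC and GTGAGGAA by 0.485 and 0.495, none past the test. Of 485 members starting with GTA or GTG 12 fell and 0 rose, of 243 ending in TGA 5 fell and 0 rose, and of 3618 in no group 24 fell and 6 rose. Further falls were at GGTTATGA (-4.79 ± 0.957, adjusted p = 0.00996, and 0.739 without motif probes) and TGTGTGAT (-4.32 ± 1.07, adjusted p = 0.0322). On the log2 scale with all probes, by the same limma test, TGTGTGAT changed by only -0.392 with 5mC (adjusted p = 0.818). GTGAGGAA changed by -0.089 there (adjusted p = 0.966). Without motif probes TGTGTGAT was at -0.756, also not past the test.

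The named rises of ATF1 with 5mC lay at members of low level. AGAGGAAA read 1.89 and 2.07 on 5mC arrays, against -1.26 and -0.700 on C arrays (adjusted p = 0.0135). GGAGAATG changed by 3.35 ± 0.787 (adjusted p = 0.0245), GAGAGGAG by 3.18 ± 0.784 (adjusted p = 0.0314), TAAAAGAG by 3.13 ± 0.732 (adjusted p = 0.0242) and AAGTTAGA by 2.29 ± 0.548 (adjusted p = 0.0270). No array of these members reached 4. None of the 8 rises was at a TGATG member. Of 8-mers of any kind, 0 of 58348 were called without motif probes and 5124 of 65121 with only the ATF1 arrays. Counts of members follow. The number changed was 30 after quantile normalization, 0 without motif probes and 169 with only the ATF1 arrays, and 0 without either 5mC array, 4 without C replicate 1 and 5 without C replicate 2.

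With 5hmC 13 members rose and 7 fell for ATF1, against 0.0998% and 2.08% of all 8-mers. The median change of 0.380, with 72.6% upward, was close to that of CREB1 in size, while that of all 8-mers was -0.0274. Here the TGATG members did not lead: 0 rose and 1 fell (median 0.168, 60 of 107 upward), and without motif probes the median was -0.0311 in log2 score. After quantile normalization, however, 23 of them rose and 1 fell (median 2.00), so the scaling set how many of this group were called. The named rises were at low levels, such as GAAGGTAT with 1.71 and 1.62 on 5hmC arrays, against -1.29 and -0.530 on C arrays (adjusted p = 0.0120), and TAGAGTTT with 2.23 and 1.42 with 5hmC, against -0.638 and -0.567 with C (adjusted p = 0.00945). AAGATAAA, AGAATGGT and TTAGAGTT changed by 2.38, 2.29 and 2.37 (adjusted p = 0.0233, 0.0355 and 0.0433). Of the 7 falls, those named besides ATGATAAA and GTGAGGAA were TAGTGGTT, TTGATGGT and ATTGATTA, with changes of -3.01, -3.06 and -2.88, and TTGATGGT was at 0.174 without motif probes. The number changed was 112 after quantile normalization, of which 4.46% were lower, 13 on the log2 scale with 23.1% lower, against 35.0% lower in the deposited scores, and 0 without motif probes. It was 0 and 6 without 5hmC replicate 1 or 2 and 3 and 5 without C replicate 1 or 2.

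Between the modifications ATF1 was higher with 5hmC than with 5mC at 36 members and lower at 4, against 0.134% and 0.591% of all 8-mers. The median difference of 0.584 was smaller with more guanines, at 0.898, 0.699, 0.526 and 0.361 for 1, 2, 3 and 4 or more. AGATAAAA read 1.72 and 2.30 on 5hmC arrays, against -0.867 and -1.12 on 5mC arrays (adjusted p = 0.0134), with ATTAGATG (2.85) and TATATAGG (2.82) the other large rises, and GGTTGAGA (-2.56), ATTGAGTG (-2.51) and GGAGAGAA (-2.31) the largest falls. The median change in 107 TGATG members was 1.37 and 0 of them passed. The count was 0 without motif probes, 241 after quantile normalization, 173 with only the ATF1 arrays, 0 without either 5mC array and 11 and 2 without 5hmC replicate 1 or 2.

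The strand difference of ATF1 rose in 14 members and fell in 53 with 5mC, against 0.658% and 1.37% of all pairs, and rose in 10 and fell in 1 with 5hmC, against 0.146% and 0.0807%. Of the 10 rises with 5hmC 5 were at TGATG pairs, whose median strand change was 1.94, and 3 at GGGG pairs whose reverse complements had 1 or 2 probes. TAATGATG is an example with enough probes on both sides: the member read 6.30 and 6.74 on 5hmC arrays, against 6.48 and 6.58 on C arrays, and its reverse complement CATCATTA -0.190 and 0.574 with 5hmC, against 4.94 and 5.74 with C (strand change 5.15 ± 0.781, adjusted p = 0.00687). On 5hmC DNA the member stood above 6 and the modified orientation near 0. For CREB1 the same pair changed by 11.2 ± 0.781 (adjusted p = 2.59e-07). Between 5hmC and 5mC the strand difference of ATF1 was higher in 46 members and lower in 2, against 0.605% and 0.155%. The counts against C were 24 with 5mC and 4 with 5hmC on the log2 scale, 70 with 5hmC after quantile normalization, and 0 with 5mC and 0 with 5hmC without motif probes. Without one array each they ran from 5 without 5mC replicate 2 to 13 without 5mC replicate 1 (9 and 12 without C replicate 1 or 2), and with 5hmC were 4 without 5hmC replicate 1 or either C array and 7 without 5hmC replicate 2.

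The leading cytosine-free 8-mers of JUND were others than those of CREB1 and ATF1, and over the members its arrays within a group correlated least with 5hmC and with C. The leading 5-mers on C DNA were shared in part. GATGA and ATGAT, the highest for JUND there, came next after TGATG for CREB1 and ATF1. The 5 highest members of JUND on C DNA held TGAGTA, which starts like the AP-1 site TGAGTCA. ATGAGTAA read 4.43 and 3.55 on 5mC arrays, 14.2 and 0.976 on 5hmC arrays and 21.4 and 4.71 on C arrays. TGAGTAAT read 3.63 and 1.496 with 5mC, 21.5 and 0.0603 with 5hmC and 18.2 and 4.26 with C, and GATGAGTA 3.85 and 1.98 with 5mC, 13.0 and 0.228 with 5hmC and 15.8 and 2.17 with C. By z-score the first 5hmC array and the first C array were high in each and their second arrays low, so the groups overlapped. The 6 members with TGAGTAA averaged 1.83 on 5mC, 4.62 on 5hmC and 7.36 on C for JUND, and for CREB1 2.85, 6.38 and 1.96. On the probes shown above with ATGAGTAA the JUND signal was 1.78 and 2.46 times the array's median with 5mC, 5.75 and 11.1 with 5hmC and 6.35 and 1.36 with C at the first, and 1.11 and 1.477 with 5mC, 2.44 and 7.12 with 5hmC and 4.85 and 1.504 with C at the second. At both probes the second 5hmC array was thus brighter than the first relative to its median, opposite to the z-scores of ATGAGTAA. All members with TGAGT, 108 in number, averaged 0.160 ± 0.0795 on 5mC, 0.851 ± 1.09 on 5hmC and 1.33 ± 1.10 on C for JUND, within the spread of the arrays.

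With 5mC 25 members rose and 38 fell for JUND, against 0.799% and 0.244% of all 8-mers, with a median change of -0.442 over members and 0.0396 over all. AAAAAAGG read 4.69 and 4.76 on 5mC arrays, against 0.111 and 0.438 on C arrays (change 4.46 ± 0.568, adjusted p = 0.00240). AAAAATAG read 7.84 and 7.76 with 5mC, against 3.02 and 3.17 with C (adjusted p = 0.0257), and AAAAGAAG 6.34 and 10.3 with 5mC, against 0.970 and 2.37 with C (adjusted p = 0.00552). The 5mC arrays of all 3 lay above the C arrays, as the choice of named members required. Without motif probes their log2 change was 2.28, 2.66 and -0.913, so AAAAGAAG turned downward. AAGAGTAA and AGGATAGT also rose, by 4.81 and 4.59 (adjusted p = 0.0149 and 0.0194). AAAAG marked the highest members of JUND on 5mC DNA (mean 1.19 over 108), in place of GATGA on C DNA (mean 1.93 over 107).

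The falls of JUND with 5mC included AAATGAAG, with 0.103 and -0.762 on 5mC arrays, against 3.43 and 2.72 on C arrays (adjusted p = 0.00747), and GGTGGGTA, with -0.295 and 0.546 with 5mC, against 3.77 and 3.60 with C (adjusted p = 0.0200). GTAAGAGT, GAGTATGA and AGATGAGA changed by -3.99, -3.57 and -3.21 (adjusted p = 0.0450, 0.0284 and 0.0382), and AGATGAGA was at 0.407 without motif probes. The group with TGAGT had the lowest mean change of any 5-mer, -1.17, with 1 of 108 members lower by the test. The number changed was 124 after quantile normalization, with 71.8% lower, and 42 on the log2 scale with 78.6% lower, against 60.3% in the deposited scores. It was 4 without motif probes (53 of 58348 8-mers of any kind) and 38 without the variance trend (460 of 65121). It was 0 with only the JUND arrays (3 of 65121). It was 28 and 8 without 5mC replicate 1 or 2 and 23 without C replicate 1.

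With 5hmC limma called 0 members of JUND changed against C, as it called 0% of all 8-mers (0 of 65121), although 618 members and 6123 of all 8-mers had an unadjusted p under 0.05. Quantile normalization gave 6 members and the log2 scores 1. Without 5hmC replicate 1 the count was 224, without C replicate 1 4 and without C replicate 2 18, so the first 5hmC array moved it most. Same-numbered JUND arrays with 5hmC and with C deviated together from their group means (r = 0.636 over all 8-mers tested), which the fit leaves out. With the replicate number as a block within each protein, an alternative added after seeing the data, limma called 1 member, GAAAGGAA, which is named after its value was seen. It read 0.209 and -1.27 on 5hmC arrays, against 3.52 and 3.46 on C arrays. Between the modifications 140 members were higher with 5hmC than with 5mC and 88 lower, against 0.946% and 2.16% of all 8-mers, with a median difference of 0.371. ATATGTTG read 2.29 and 7.46 on 5hmC arrays, against 0.0592 and 0.131 on 5mC arrays (adjusted p = 0.0187). AAATATGG read 1.97 and 11.1 with 5hmC, against -0.153 and 0.721 with 5mC (adjusted p = 0.0359), and AAATATGT 0.768 and 10.6 with 5hmC, against -0.643 and -0.763 with 5mC (adjusted p = 0.0457). The second 5hmC array was the high one in all 3, and it had the lowest signal over background of all arrays (1.55). AAATATGT was at -0.670 in log2 score without motif probes.

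In the other direction AAAAATAG read 1.87 and 0.916 on 5hmC arrays, against 7.84 and 7.76 on 5mC arrays (adjusted p = 0.00319), AAAAGAAG 1.18 and 1.69 with 5hmC, against 6.34 and 10.3 with 5mC (adjusted p = 0.00227), and AGAAAGGA 1.58 and -0.781 with 5hmC, against 4.38 and 9.45 with 5mC (adjusted p = 0.0109). Both 5hmC arrays lay below both 5mC arrays at each, again as the choice required. ATGT members had 24 higher and 1 lower of 404 (median 0.923), GGAA members 9 higher and 13 lower of 404 (median 0.1001), and TGATG members 0 of 107 (median 0.600). The count of 228 was 67 without motif probes, 0 with only the JUND arrays, 471 and 122 without 5hmC replicate 1 or 2, and 67 and 42 without 5mC replicate 1 or 2.

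The strand difference of JUND rose in 21 members and fell in 104 with 5mC, against 0.478% and 1.29% of all pairs, with a median change of -0.691. The share that fell grew with guanine count, from 0.686% with 1 guanine to 1.06%, 2.23% and 2.43% with 2, 3 and 4 or more. With 5hmC it changed in 0 members, as in 0% of all pairs (limma, 610 of 6166 members with an unadjusted p under 0.05). It changed in 6 after quantile normalization and 0 on the log2 scale. Without 5hmC replicate 1 it changed in 120 members, without 5hmC replicate 2 in 12, and without C replicate 1 or 2 in 9 and 12. Between 5hmC and 5mC it was higher in 338 members and lower in 90, against 3.63% and 1.78%, again more often with more guanines (2.45%, 4.31%, 6.70% and 7.41% higher). The 5mC count was 119 on the log2 scale with 98.3% lower, against 83.2%, and 13 without motif probes. It was 39 and 21 without 5mC replicate 1 or 2 and 25 without C replicate 1.

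The effects of the modifications were compared between proteins as interaction terms of the same fit. Against ATF1, CREB1 differed at 0 members for 5mC and at 1 for 5hmC, where 0.272% and 0.215% of all 8-mers differed. For 5mC 116 of 6298 members had an unadjusted p under 0.05 (limma), and 0 differed on the log2 scale. The 1 member was GTGTAATT. CREB1 read 10.6 and 10.9 there on 5hmC arrays, against 2.19 and 2.45 on C arrays, and ATF1 4.67 and 3.11 with 5hmC, against 4.01 and 3.29 with C (difference of effects 8.19, adjusted p = 0.0217). CREB1 thus gained at this member where ATF1 read about the same on both. The median difference of effects over members was 0.0127 with 5hmC, and -0.0834 over all 8-mers. The call was lost on the log2 scale, after quantile normalization, without motif probes, with only the arrays of the proteins compared, and without either 5hmC array or either C array of ATF1. By the same test 2 and 3 members differed without CREB1 5hmC replicate 1 or C replicate 1. For 5mC 1 member differed without CREB1 5mC replicate 2 and 2 without CREB1 C replicate 1.

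Against JUND, CREB1 differed in its 5hmC effect at 31 members, 29 higher and 2 lower, where 0.174% of all 8-mers were higher and 2.89% lower. GTGTAATT led again (difference of effects 8.85, adjusted p = 0.00116), with JUND at 1.55 and -0.0548 on 5hmC arrays, against 1.43 and 0.911 on C arrays. TGTGATGT followed (difference 7.72, adjusted p = 0.0104), with JUND at 0.832 and 0.877 with 5hmC, against 2.05 and 1.28 with C. The 2 lower members, named after their values were seen, were ATATTGGA (-3.86, adjusted p = 0.0167) and GTTGTTTT (-2.90, adjusted p = 0.00738). In the 5mC effect 7 members were higher and 5 lower, against 0.511% and 2.83% of all 8-mers. The lower ones were GTTATGAT, AAAAGAAG, GGTTATGA, AAAAAAGG and, named after its value was seen, GTTAATAG, from -7.58 (adjusted p = 0.0425) to -3.06 (adjusted p = 0.0396). Of the higher ones AAATGAAG differed most (3.24, adjusted p = 0.0157). CREB1 averaged -0.852 there on 5mC and -0.685 on C, while JUND averaged -0.330 and 3.08, so JUND was the side that differed. A difference of effects can thus rest on either protein. The 5hmC count was 0 without motif probes, 8 on the log2 scale, 12 with only the arrays of both proteins and 12 after quantile normalization, and without 1 array it was 20 (CREB1 5hmC replicate 1), 20 and 17 (CREB1 C replicates 1 and 2), 200 and 19 (JUND 5hmC replicates 1 and 2) and 60 (JUND C replicate 1). The 5mC count was 0 on the log2 scale, 0 without motif probes, 2 with only the arrays of both proteins, 2 without CREB1 5mC replicate 1, CREB1 C replicate 2 or JUND 5mC replicate 2, and 23 and 22 without JUND C replicate 1 or 2.

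Members with a run of 4 guanines were not bound in any group. The 297 members with GGGG averaged -0.716 ± 0.125, -0.514 ± 0.0331 and -0.568 ± 0.0274 for CREB1 on 5mC, 5hmC and C, -0.660 ± 0.0189, -0.296 ± 0.00846 and -0.632 ± 0.0280 for ATF1 and -0.567 ± 0.149, -0.139 ± 0.160 and 0.0258 ± 0.487 for JUND. None of them had a mean of 4 or more in any of the 9 groups. Of their 166 tested reverse complements, which hold CCCC, 36 had a mean of 4 or more for JUND on 5hmC, 33 on C and 14 on 5mC. For CREB1 0, 11 and 14 did on 5mC, 5hmC and C, and for ATF1 6, 10 and 11. These reverse complements averaged 3.33 ± 4.25 for JUND on 5hmC and 2.57 ± 2.65 on C, so the JUND arrays of each group differed widely. Those of the GGGG members named above lay on few probes each.

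The amount of modified base around a member was set beside its change. Over the 6298 members the change of CREB1 with 5hmC against the mean number of cytosines on a member's probes had a Pearson r of -0.157, and -0.0648 over all 8-mers, and with 5mC r was 0.0851 and 0.0225. For ATF1 it was -0.191 over members with 5hmC and 0.168 with 5mC, and for JUND 0.0664 and 0.240. Members share probes, so these r are descriptions with no p. The modified bases around the members, the scaling of each array to its other 8-mers and the modification itself cannot be told apart in the level of a single member.

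The values next to the limit of 10 probes are given once. The 4 left out, GTGAATTA, TGAAGTAG, TGAATTAG and TTGAAGTA, had CREB1 means on C DNA of 0.577, 0.288, 0.115 and 0.763. Of the 7 on exactly 10 probes, AAGAGGAA was lowest at -0.969 and TGGAATGA highest at 5.67, above the bound level of 4.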

How the data were processed

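Binding of 3 GST-tagged DNA-binding domains was read on 18 arrays by fluorescence, per the labels' protocols. The authors computed and deposited, per the file headers, a standardized score (z-score) for each 8-mer on each array, with a median near 0. The authors also deposited, per the file headers, the median signal and background intensity of each probe, which are not normalized. The sources used here do not give the scaling of the score, the image software or the scanner settings. The members and the lists of shared letters were chosen with earlier results of these data known.

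The synthesized strand was taken as the reverse complement of each deposited probe sequence, and members as 8-mers of A, G and T with a G on 10 or more probes. The deposited z-scores of 65121 8-mers on all 18 arrays were fitted with limma 3.58.1 in R 4.3.3 (1 mean per group, 9 residual degrees of freedom, variance trend, two-sided, Benjamini-Hochberg adjustment over all 8-mers, threshold 0.05). The 409 8-mers on no probe were left out. The number of arrays, 2 a group, limits the precision. The same fit was run on the difference between an 8-mer and its reverse complement over 32225 pairs, and on the difference of effects between proteins. The scripts were tested on simulated data with known changes. Tables were made with Python 3.11.15, numpy 2.4.6 and pandas 2.3.3.

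The 8-mers named are the 5 with the highest mean z-score in each of 9 groups, up to 5 rises and 5 falls per comparison with C and up to 3 and 3 for 5hmC minus 5mC (past the test, no overlap between arrays), up to 5 largest strand changes each for CREB1 and ATF1, and the thymine counterparts of the 5 best single-cytosine sites with ACGT on C and with GCAA on 5mC for CREB1. That gives 83 members. The lists are members that hold TGATG or ATGT or GTAA or TGAGT or GGGG or GATAA or GGAA or TAAT, end in TGA, start with GTA or GTG, or end in TTG or ATG. Lists are described by counts and medians with no test of their own.

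Alternatives were quantile normalization, log2 scores from background-subtracted intensity (floored at percentile 1 of the positive values, centred and scaled by median and median absolute deviation), the same from probes without TGAC and GTCA and ACGT and GCAA and TTGC (at least 3 probes), no variance trend, only the arrays of the proteins compared, the replicate number as a block (also within each protein, added after seeing the data), other probe minimums and leaving out each array.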

Additional observations from a re-analysis of the deposited data

Results flagged for a closer look

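The effect of 5hmC differed between CREB1 and ATF1 at 1 member, GTGTAATT, by a test of the difference itself (limma, adjusted p = 0.0217). The effect of 5hmC differed between CREB1 and JUND at 31 members and that of 5mC at 12, also by that test. The GTGTAATT call was lost on the log2 scale, after quantile normalization, without motif probes, with only the arrays of both proteins and without any 1 of the ATF1 arrays compared. The 31 became 0 without motif probes, 8 on the log2 scale, 12 with only the arrays of both proteins and 17 to 200 when 1 array was left out, with 17 without the second CREB1 array with C and 200 without the first JUND array with 5hmC. The 12 became 0 without motif probes and on the log2 scale, 2 with only the arrays of both proteins, 2 without the first CREB1 array with 5mC, the second with C or the second JUND array with 5mC, and 23 without the first JUND array with C.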

How the results depend on the processing

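The number of members called was 53 for CREB1 5mC against C, 180 for CREB1 5hmC against C, 67 for CREB1 5hmC against 5mC, 53 for ATF1 5mC against C, 20 for ATF1 5hmC against C, 40 for ATF1 5hmC against 5mC, 63 for JUND 5mC against C, 0 for JUND 5hmC against C, 228 for JUND 5hmC against 5mC, 92 for CREB1 strand difference with 5mC, 224 for CREB1 strand difference with 5hmC, 67 for ATF1 strand difference with 5mC, 11 for ATF1 strand difference with 5hmC, 125 for JUND strand difference with 5mC, 0 for JUND strand difference with 5hmC, 0 for CREB1 over ATF1 with 5mC, 1 for CREB1 over ATF1 with 5hmC, 12 for CREB1 over JUND with 5mC, 31 for CREB1 over JUND with 5hmC. Every one of these 19 counts stayed within 1.5 times when members were taken from 5 or 15 probes, when only 8-mers on 10 or more probes were tested and under the replicate block. With the replicate number as a block within each protein, chosen after seeing the data, 18 did and JUND 5hmC against C became 1. Calls over all 8-mers moved as well, given here for 5mC against C, 5hmC against C and 5hmC against 5mC. After quantile normalization they were 2037, 1831 and 396 for CREB1, 2303, 1734 and 1418 for ATF1 and 1262, 110 and 2498 for JUND. With log2 scores they were 3368, 3300 and 138, then 1955, 1654 and 615, then 571, 30 and 2282, in the same order. Without motif probes 58348 8-mers were tested, and the calls were 92, 226 and 1, then 0, 14 and 62, then 53, 0 and 769. With only the arrays of the protein they were 5221, 4846 and 289, then 5124, 3549 and 2100, then 3, 0 and 3. The counts of members that moved more were as follows, and the cause was not tested. After quantile normalization they were 3 for CREB1 5mC against C, 98 for CREB1 5hmC against C, 30 for ATF1 5mC against C, 112 for ATF1 5hmC against C, 241 for ATF1 5hmC against 5mC, 124 for JUND 5mC against C, 6 for JUND 5hmC against C, 9 for CREB1 strand difference with 5mC, 99 for CREB1 strand difference with 5hmC, 70 for ATF1 strand difference with 5hmC, 227 for JUND strand difference with 5mC, 6 for JUND strand difference with 5hmC, 0 for CREB1 over ATF1 with 5hmC and 12 for CREB1 over JUND with 5hmC. With log2 scores they were 25 for CREB1 5mC against C, 84 for CREB1 5hmC against C, 6 for CREB1 5hmC against 5mC, 13 for ATF1 5hmC against C, 1 for JUND 5hmC against C, 17 for CREB1 strand difference with 5mC, 98 for CREB1 strand difference with 5hmC, 24 for ATF1 strand difference with 5mC, 4 for ATF1 strand difference with 5hmC, 0 for CREB1 over ATF1 with 5hmC, 0 for CREB1 over JUND with 5mC and 8 for CREB1 over JUND with 5hmC. With log2 scores from probes without a bZIP motif, which leave fewer probes per 8-mer, they were 0 for CREB1 5mC against C, 3 for CREB1 5hmC against C, 0 for CREB1 5hmC against 5mC, 0 for ATF1 5mC against C, 0 for ATF1 5hmC against C, 0 for ATF1 5hmC against 5mC, 4 for JUND 5mC against C, 67 for JUND 5hmC against 5mC, 0 for CREB1 strand difference with 5mC, 6 for CREB1 strand difference with 5hmC, 0 for ATF1 strand difference with 5mC, 0 for ATF1 strand difference with 5hmC, 13 for JUND strand difference with 5mC, 0 for CREB1 over ATF1 with 5hmC, 0 for CREB1 over JUND with 5mC and 0 for CREB1 over JUND with 5hmC. Without the variance trend they were 105 for CREB1 5hmC against 5mC, 38 for JUND 5mC against C, 5 for CREB1 over ATF1 with 5hmC, 24 for CREB1 over JUND with 5mC and 56 for CREB1 over JUND with 5hmC. With only the arrays of the proteins compared, which leaves fewer residual degrees of freedom, they were 14 for CREB1 5hmC against 5mC, 169 for ATF1 5mC against C, 73 for ATF1 5hmC against C, 173 for ATF1 5hmC against 5mC, 0 for JUND 5mC against C, 0 for JUND 5hmC against 5mC, 50 for CREB1 strand difference with 5mC, 133 for CREB1 strand difference with 5hmC, 194 for ATF1 strand difference with 5mC, 53 for ATF1 strand difference with 5hmC, 0 for JUND strand difference with 5mC, 0 for CREB1 over ATF1 with 5hmC, 2 for CREB1 over JUND with 5mC and 12 for CREB1 over JUND with 5hmC.

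Leaving out 1 array, so that the lone array of a group was assumed to vary like the other groups, gave 16 to 35 for CREB1 5mC against C, 63 to 139 for CREB1 5hmC against C, 11 to 42 for CREB1 5hmC against 5mC, 0 to 5 for ATF1 5mC against C, 0 to 6 for ATF1 5hmC against C, 0 to 11 for ATF1 5hmC against 5mC, 8 to 70 for JUND 5mC against C, 0 to 224 for JUND 5hmC against C, 42 to 471 for JUND 5hmC against 5mC, 32 to 61 for CREB1 strand difference with 5mC, 103 to 136 for CREB1 strand difference with 5hmC, 5 to 13 for ATF1 strand difference with 5mC, 4 to 7 for ATF1 strand difference with 5hmC, 21 to 105 for JUND strand difference with 5mC, 9 to 120 for JUND strand difference with 5hmC, 0 to 2 for CREB1 over ATF1 with 5mC, 0 to 3 for CREB1 over ATF1 with 5hmC, 2 to 23 for CREB1 over JUND with 5mC, 17 to 200 for CREB1 over JUND with 5hmC. Only the second arrays carry a number in the labels, and deviations of same-numbered arrays from their group means correlated at -0.163 to 0.636 over 36 pairs of groups, 5 of them over 0.1. Of the pairs compared within a protein, 5hmC and C correlated at 0.636 for JUND, 0.216 for ATF1 and 0.202 for CREB1. For 5mC and C the values were 0.154, -0.0508 and -0.101 in the same order. The main fit did not treat the arrays as paired, and so leaves out the positive correlations of 5hmC with C. With the replicate number as a block the counts were 44 for CREB1 5mC against C, 178 for CREB1 5hmC against C, 55 for CREB1 5hmC against 5mC, 43 for ATF1 5mC against C, 15 for ATF1 5hmC against C, 27 for ATF1 5hmC against 5mC, 47 for JUND 5mC against C, 0 for JUND 5hmC against C, 193 for JUND 5hmC against 5mC, 85 for CREB1 strand difference with 5mC, 215 for CREB1 strand difference with 5hmC, 47 for ATF1 strand difference with 5mC, 12 for ATF1 strand difference with 5hmC, 99 for JUND strand difference with 5mC, 0 for JUND strand difference with 5hmC, 0 for CREB1 over ATF1 with 5mC, 1 for CREB1 over ATF1 with 5hmC, 8 for CREB1 over JUND with 5mC, 27 for CREB1 over JUND with 5hmC. With the numbers crossed, chosen after seeing the data, they were 45 for CREB1 5mC against C, 55 for CREB1 5hmC against 5mC, 33 for ATF1 5hmC against 5mC, 85 for CREB1 strand difference with 5mC.

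For named members 644 of 990 alternative values kept direction and call, 332 kept direction only and 14 turned, given in log2 score. Without motif probes 3 of 69 kept direction and call, 53 kept direction only and 13 turned. Those were GTGAGGAA (0.859 for CREB1 5hmC, 0.485 for ATF1 5mC, 0.495 for ATF1 5hmC), GTAAGTTT (0.444) and TGGAATGA (1.479) for CREB1 5hmC, ATGATAAA (0.879 for ATF1 5mC, 0.445 for ATF1 5hmC, 0.545 for its strand difference), GGTTATGA (0.739) for ATF1 5mC, TTGATGGT (0.174) for ATF1 5hmC, AAAAGAAG (-0.913) and AGATGAGA (0.407) for JUND 5mC, and AAATATGT (-0.670) for JUND 5hmC against 5mC. With all probes GTGAGGAA (0.501) turned for CREB1 5hmC. Signal over background was lowest at 1.55, which limits what the dimmest JUND array can show.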

Other observations

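The 254 8-mers of A and T alone, which can carry no modified base on either strand, had median changes with 5hmC against C of 0.689 (CREB1), 0.842 (ATF1) and 0.255 (JUND). With 5mC their medians were -0.262, -0.265 and -0.460. Members of 1 guanine changed with 5hmC by 0.572, 0.590 and -0.0445, so that for CREB1 and ATF1 the medians of the 2 kinds of 8-mer were both above 0.

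A member and its own reverse complement were read from different probes. Over the 6166 pairs their mean z-scores for CREB1 correlated with Pearson r of 0.183 on 5mC, 0.253 on 5hmC and 0.331 on C, a description across overlapping 8-mers. For JUND r was -0.146, 0.0596 and 0.0156, below that of CREB1 in each kind of DNA, also on C DNA, where both orientations make the same 8 base pairs.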
